A study of Homo sapiens with 21 samples.

Results

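The mitosis genes are 58 genes that act from the end of G2 through cell division, and their transcripts were followed in MM.1S, a human multiple myeloma cell line that grows in suspension. They were chosen by name: every row of the expression table whose symbol is on a list of 58 G2 and mitosis genes. All 58 were found among the 17691 genes of the table, and all 58 were among the 12559 genes that reached 1 TPM in at least 3 libraries and were tested. TPM is a length-scaled share of all transcripts, so TPM of different genes can be set side by side, and a gene's TPM can fall where other genes rise.

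The cells came as 7 groups of 3 libraries each, 21 mRNA-seq libraries in all. Wild-type cells were left untreated or were collected after 24, 48 or 72 h in pomalidomide at 1 µM, a drug that turns the cereblon ubiquitin ligase on proteins such as Aiolos (IKZF3) and Ikaros. Other cells, given no drug, carried an ARID2 knockdown, an Aiolos knockdown or a control knockdown. The ARID2 and Aiolos hairpins came by lentivirus and acted for 72 h, while the sources used here give neither hairpin nor time for the control. ARID2 is a subunit of the PBAF chromatin remodeller. The design has 1 cell line, no untreated cells matched to each drug time, and whole cultures as samples: fewer dividing cells and less mRNA per cell cannot be told apart here. The 3 libraries of a group are described as biological replicates without naming cultures or days, so p-values refer to the spread among these libraries.

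Mitosis is driven by CDK1 bound to cyclin A or B, which CDC25 phosphatases switch on and which Polo and Aurora kinases assist. Condensin packs the chromosomes, kinetochores bind them to spindle microtubules, the spindle checkpoint holds back the APC/C ubiquitin ligase until all are attached, and the central spindle then guides cytokinesis. The genes for these proteins are transcribed in G2 and M, mostly through promoters with a cell cycle homology region (CHR) bound by the MuvB complex with MYBL2 and FOXM1, and with CCAAT boxes bound by NF-Y. In multiple myeloma such genes serve as a measure of proliferation, and IMiD drugs such as pomalidomide slow growth.

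Promoter sequences, 250 bases before to 50 bases from the annotated start on, came from RefSeq on GRCh38.p14, and 49 of the 58 members matched by symbol with 60 entries. The promoters of 3 members that passed as higher at 24 h (KIF20A, CCNB2, PLK1) and of 3 that passed as lower (MAD2L1, SHCBP1, CDCA5) are printed as examples of either call at 24 h, and all 6 genes were lower at 48 h. They lie at chr5:138178862-138179161, plus strand, chr15:59104896-59105195, plus strand, chr16:23678639-23678938, plus strand, chr4:120066799-120067098, minus strand, chr16:46621330-46621629, minus strand and chr11:65083991-65084290, minus strand. Each is written 5′ to 3′ on the strand of its gene, in lower case. Capitals mark CHR letters (TTTGAA, its reverse complement TTCAAA, or TTCGAA) and CCAAT letters (CCAAT or, on the other strand, ATTGG).
KIF20A: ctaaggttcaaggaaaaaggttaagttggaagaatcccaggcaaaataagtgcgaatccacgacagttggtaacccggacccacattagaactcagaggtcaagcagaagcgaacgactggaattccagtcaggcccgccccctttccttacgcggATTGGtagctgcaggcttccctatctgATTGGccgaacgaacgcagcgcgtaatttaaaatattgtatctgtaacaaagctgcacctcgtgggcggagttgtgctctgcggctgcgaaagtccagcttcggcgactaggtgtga
CCNB2: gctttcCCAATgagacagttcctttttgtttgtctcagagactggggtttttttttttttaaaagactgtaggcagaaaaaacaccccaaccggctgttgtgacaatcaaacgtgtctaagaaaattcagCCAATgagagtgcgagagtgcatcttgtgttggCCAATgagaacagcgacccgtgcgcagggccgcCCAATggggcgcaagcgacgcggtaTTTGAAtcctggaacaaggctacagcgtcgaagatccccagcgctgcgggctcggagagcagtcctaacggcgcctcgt
PLK1: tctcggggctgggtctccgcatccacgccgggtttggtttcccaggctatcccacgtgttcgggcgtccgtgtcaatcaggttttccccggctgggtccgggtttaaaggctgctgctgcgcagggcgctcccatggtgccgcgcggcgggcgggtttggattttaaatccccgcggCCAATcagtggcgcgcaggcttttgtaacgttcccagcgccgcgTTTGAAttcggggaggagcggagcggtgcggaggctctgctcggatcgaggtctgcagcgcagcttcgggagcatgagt
MAD2L1: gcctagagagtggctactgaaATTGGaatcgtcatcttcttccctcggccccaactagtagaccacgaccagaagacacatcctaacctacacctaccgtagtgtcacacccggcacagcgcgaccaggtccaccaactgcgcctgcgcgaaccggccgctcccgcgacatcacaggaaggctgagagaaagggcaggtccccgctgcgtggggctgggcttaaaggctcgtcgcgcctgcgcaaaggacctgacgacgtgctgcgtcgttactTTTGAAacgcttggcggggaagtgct
SHCBP1: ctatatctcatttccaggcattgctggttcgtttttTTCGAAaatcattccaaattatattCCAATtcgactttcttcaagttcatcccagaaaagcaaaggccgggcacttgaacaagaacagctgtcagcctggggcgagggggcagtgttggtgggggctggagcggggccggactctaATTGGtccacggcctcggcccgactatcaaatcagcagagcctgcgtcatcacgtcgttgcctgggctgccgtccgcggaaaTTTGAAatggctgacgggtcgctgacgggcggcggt
CDCA5: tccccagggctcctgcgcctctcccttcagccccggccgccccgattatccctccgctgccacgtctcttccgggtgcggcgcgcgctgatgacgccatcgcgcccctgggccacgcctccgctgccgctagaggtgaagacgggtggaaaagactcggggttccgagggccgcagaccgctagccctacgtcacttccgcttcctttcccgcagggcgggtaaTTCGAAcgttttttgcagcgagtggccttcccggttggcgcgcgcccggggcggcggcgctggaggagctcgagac

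Both strands were searched, and a CHR and a CCAAT match overlapped by at most 1 base in any member promoter. CHR letters stood in at least 1 promoter of 39 of 49 members (79.6%), against 15.5% of the 9706 other tested genes with an entry and 19.5% of all 27305 genes of the promoter table. CCAAT letters stood in 39 of 49 members (79.6%), against 43.2% of other tested genes and 39.7% of all genes. Both stood in the same promoter for 32 members (65.3%), against 6.28% and 7.85%. Counted over entries, 42 of 60 held CHR letters (70.0%), against 16.4% of all 35116 entries. Of 57 CHR matches, with a median position of -28 bases, 38 lay within 40 bases of the start. Of 88 CCAAT matches, with a median position of -87 bases, 52 lay from 120 to 40 bases before the start. Both windows were set after the positions were seen. Positions in promoters of other genes were not compared, and a site in overlapping entries of a gene is counted in each entry. CHR letters were found for 13 of 14 members that passed as lower at 24 h, 14 of 18 that passed as higher and 12 of 17 that did not pass, a description with no test. A match says that the letters are there and nothing of binding, and a window without them says nothing of a factor.

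**Figure D1:**
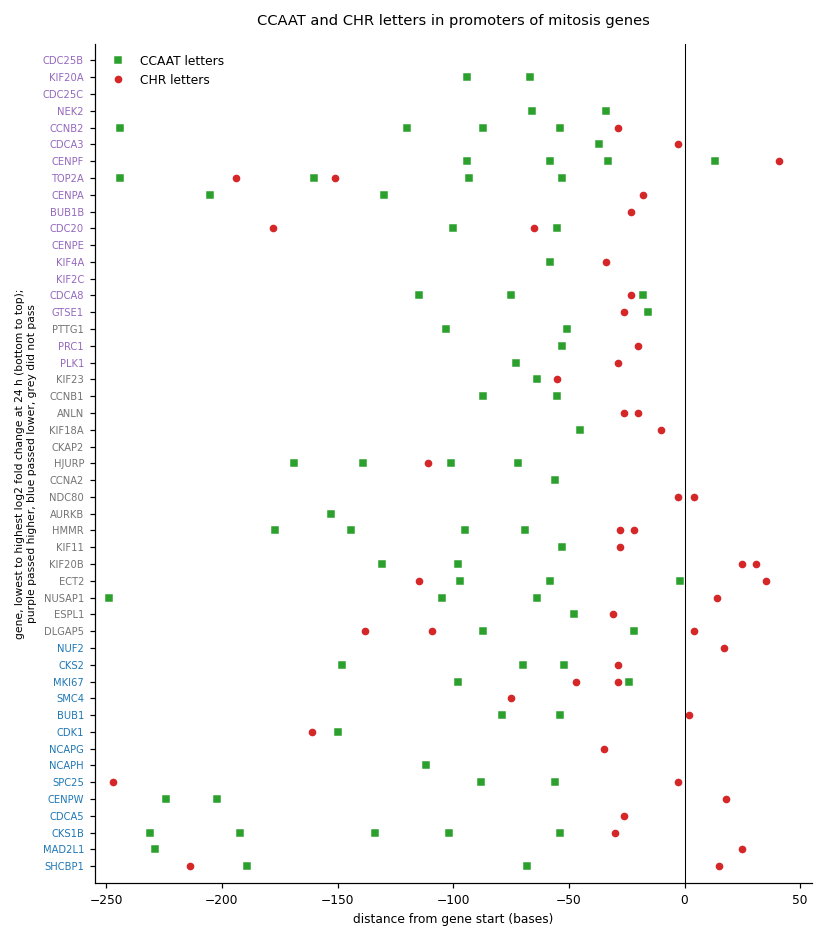
Positions of CHR letters (red circles) and CCAAT letters (green squares) in the first listed promoter of 49 mitosis genes, in bases from the gene start (0, vertical line); genes run from the lowest log2 fold change at 24 h at the bottom to the highest at the top, with names coloured by their call at 24 h. CHR letters cluster close to the start and CCAAT letters upstream of them, among genes of every call, and positions in other genes are not drawn.

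Libraries of a group correlated across genes at r of 0.993 to 0.996, and listed genes summed to 951444 to 968652 TPM per library. All 8 plasma cell markers were expressed in every group. Of the markers of other cells, 4 of 5 T and NK, 4 of 6 myeloid, 3 of 3 B cell, 3 of 4 erythroid and 5 of 6 epithelial and stromal genes averaged under 1 TPM, and no list summed to more than 28.9 TPM in a library. The lists moved with the groups, and their part in the results was not tested. The myeloid list summed to 5.08 to 7.51 TPM at 72 h and to 0.576 to 1.09 TPM in untreated cells, and to 1.95 to 3.03 TPM in the ARID2 knockdown and 0.817 to 0.965 TPM in the control knockdown. The epithelial and stromal list summed to 1.38 to 1.61 TPM at 72 h and to 6.53 to 6.98 TPM in untreated cells. In the knockdowns it summed to 4.69 to 5.48 TPM for ARID2, 3.73 to 5.58 TPM in libraries labelled Aiolos and 17.7 to 22.3 TPM in the control. The erythroid list summed to 26.8 to 28.9 TPM in the ARID2 knockdown, 3.74 to 7.97 TPM in libraries labelled Aiolos knockdown and 13.2 to 19.9 TPM in the control knockdown. The plasma cell markers held 0.361% of listed TPM in libraries labelled Aiolos knockdown and 0.619% in the control knockdown. Of these 8 markers 6 were lower there, against 30.7% of tested genes, and 2 were higher, against 37.2%. ARID2 had 12.4, 12.2 and 12.1 TPM in the ARID2 knockdown, against 26.0, 25.4 and 25.4 TPM in the control knockdown (log2 fold change -1.01 ± 0.07, adjusted p = 8.13e-11). IKZF3 stood at 127, 121 and 141 TPM in libraries labelled Aiolos knockdown, against 83.5, 79.2 and 81.4 TPM in the control knockdown (0.67 ± 0.05, adjusted p = 1.92e-10). The ARID2 knockdown had 118, 119 and 122 TPM of IKZF3, likewise above its control (0.55 ± 0.05, adjusted p = 5.09e-09). Under the drug IKZF3 had 109, 115 and 122 TPM at 24 h and 124, 125 and 120 TPM at 48 h. It had 117, 109 and 108 TPM at 72 h, against 98.0, 96.7 and 94.5 TPM in untreated cells. In the libraries labelled Aiolos knockdown the transcript thus goes against the label, the protein was not measured, and every direction drawn from these libraries carries that limit. Mitochondrial mRNA held 15.5% of listed TPM in untreated cells, 17.0% at 24 h, 16.7% at 48 h and 13.7% at 72 h. It held 18.5% in the ARID2 knockdown, 15.7% in the libraries labelled Aiolos knockdown and 17.2% in the control knockdown, and its part in the results was not tested.

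In pomalidomide all 58 mitosis genes were lower from the second day on, whereas calls at 24 h were no more frequent among them than among all tested genes in either direction. Their summed level was 6794, 6865 and 6825 TPM in untreated cells, 6391, 6693 and 6735 TPM at 24 h, 1878, 1882 and 1785 TPM at 48 h, and 960.03, 916 and 921 TPM at 72 h. The libraries at 24 h thus stood just under the untreated ones, while those at 48 and 72 h lay far under both and apart from each other. The genes together made up 0.0977% ± 0.00260 of listed TPM at 72 h and 0.705% ± 0.00374 in untreated cells (SD, n = 3 each). Member by member, means at 72 h ran from 1.55 TPM for CDC25C to 147 TPM for SMC4, with a median of 9.35 TPM. In untreated cells they ran from 18.8 TPM for CDC25C to 549 TPM for CKS2, with a median of 93.9 TPM.

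**Figure D2:**
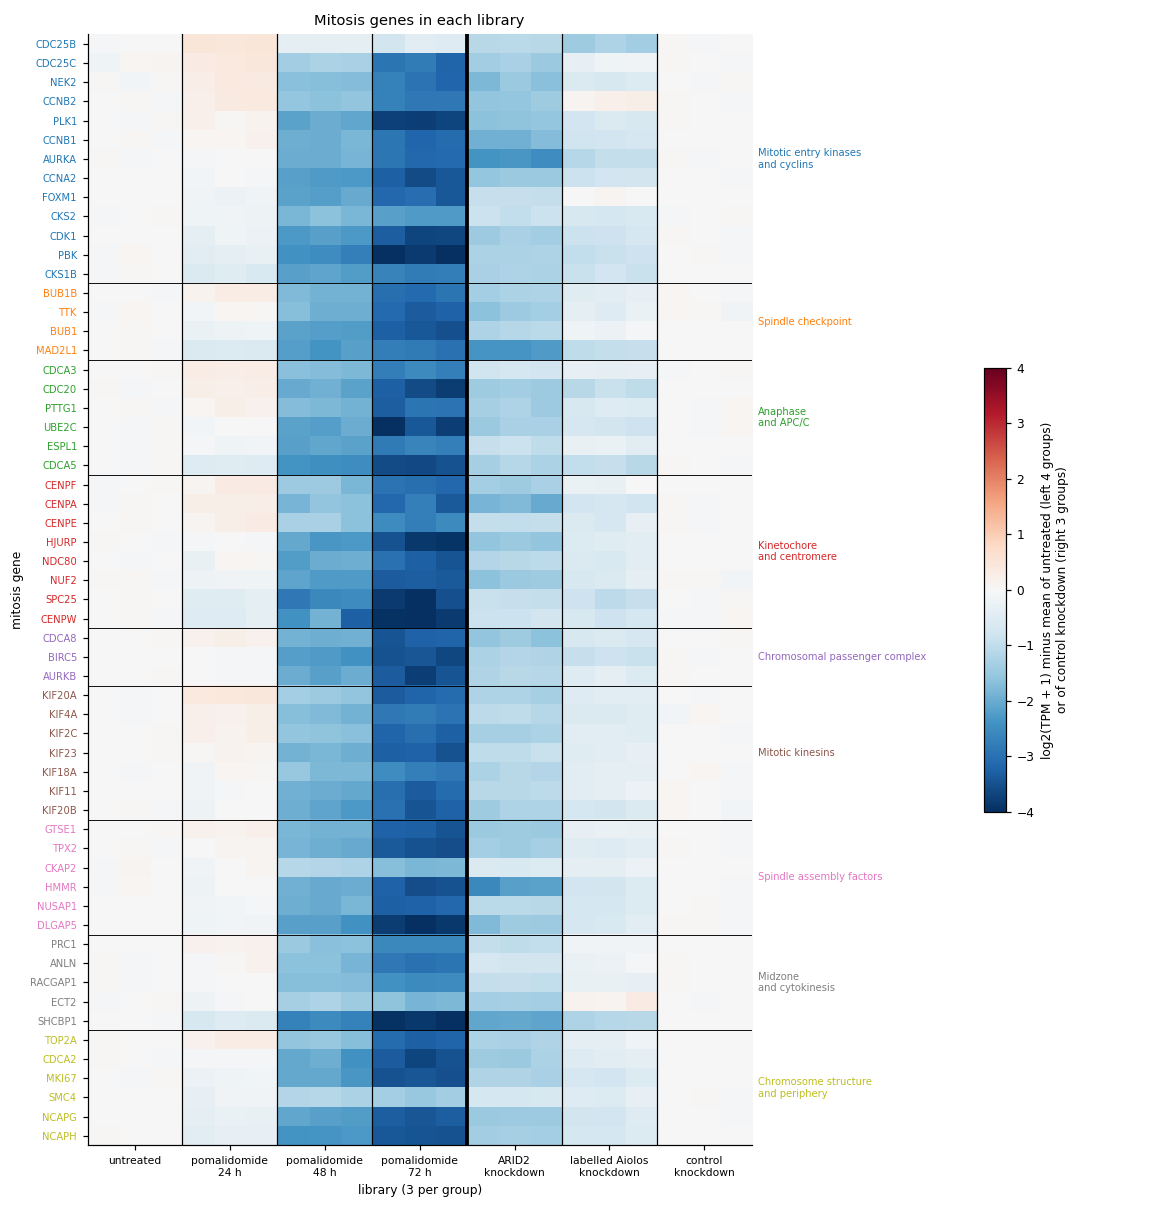
Each row is a mitosis gene, grouped by role, and each column a library, 3 per group; colour gives log2(TPM + 1) minus the mean of untreated cells (left 4 groups) or of the control knockdown (right 3 groups), with values under -4 drawn as -4. All 58 rows are blue, from pale to dark, at 48 and 72 h and in the ARID2 knockdown, while at 24 h pale red and pale blue rows stand side by side.

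At 24 h 16 of 58 members were lower than in untreated cells, 18 were higher and 24 did not pass the test, which was limma on log2(TPM + 1) over all tested genes with Benjamini-Hochberg adjustment and a threshold of 0.05. Among all 12559 tested genes 31.0% were lower and 35.1% higher, so the members' shares were close to the background in both directions. The median log2 fold change of members was -0.04, against 0.03 for all tested genes, and it was -0.09 with median-of-ratios scaling and 0.02 with quantile normalization. None of the 58 changed by 2-fold, whereas 1.98% of tested genes were lower and 4.98% higher by that much. The changes were small next to those of later days, and some calls rest on the processing: median-of-ratios scaling kept all 16 falls and 14 of the 18 rises, and quantile normalization kept 11 and 17. The fall of CENPW and the rises of CENPA and CENPE were lost with a pseudocount of 0.1 and with no filter on low values. The calls of CENPW and CENPA were also lost with quantile normalization, and whichever single library of the 2 groups was left out. Those of FOXM1, NUF2, MKI67, PLK1, CDC20, CENPE and CENPF were lost without at least 1 of these libraries.

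The largest rises at 24 h were those of CDC25B and CDC25C, the phosphatases that activate CDK1, of KIF20A, a kinesin of the central spindle, and of NEK2, a kinase of centrosome separation. CDC25B had 125, 129.6 and 128 TPM in untreated cells, 178, 175 and 179 TPM at 24 h, 96.4, 97.9 and 99.7 TPM at 48 h and 76.7, 92.2 and 87.9 TPM at 72 h. No library at 24 h overlapped an untreated one, and the log2 fold change was 0.47 ± 0.05 (adjusted p = 9.21e-08). KIF20A had 54.4, 52.6 and 54.7 TPM in untreated cells, 70.6, 71.9 and 73.9 TPM at 24 h, 20.5, 18.96 and 17.5 TPM at 48 h and 4.47, 5.03 and 5.57 TPM at 72 h (0.41 ± 0.06 at 24 h, adjusted p = 4.82e-06). CDC25C had 16.5, 19.8 and 20.1 TPM in untreated cells, 23.7, 24.9 and 25.9 TPM at 24 h, 6.48, 7.16 and 7.12 TPM at 48 h and 1.63, 1.87 and 1.15 TPM at 72 h (0.39 ± 0.09 at 24 h, adjusted p = 0.00110). NEK2 had 60.8, 54.2 and 59.9 TPM in untreated cells, 69.7, 76.02 and 74.5 TPM at 24 h, 17.7, 17.1 and 16.7 TPM at 48 h and 8.13, 6.63 and 5.56 TPM at 72 h (0.33 ± 0.09 at 24 h, adjusted p = 0.00315). Each of the 4 stood above all untreated libraries at 24 h and under all of them a day later.

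The largest falls at 24 h were those of SHCBP1, a protein of the central spindle and midbody, of MAD2L1, the checkpoint protein that binds CDC20, of CKS1B, a small partner of cyclin-dependent kinases, and of CDCA5 (sororin), which protects cohesin between sister chromatids. SHCBP1 had 135, 135 and 129 TPM in untreated cells, 85.2, 92.2 and 87.996 TPM at 24 h, 19.5, 21.8 and 19.4 TPM at 48 h and 7.59, 8.21 and 7.06 TPM at 72 h (-0.58 ± 0.05 at 24 h, adjusted p = 7.18e-09). MAD2L1 had 74.4, 76.1 and 69.9 TPM in untreated cells, 49.2, 49.97 and 48.7 TPM at 24 h, 15.1, 13.2 and 15.5 TPM at 48 h and 9.89, 9.56 and 8.38 TPM at 72 h (-0.57 ± 0.06 at 24 h, adjusted p = 5.35e-08). In both genes every library at 24 h was under every untreated one. CKS1B had 266, 285 and 282 TPM in untreated cells, 184, 198 and 181 TPM at 24 h, 61.3, 63.5 and 58.5 TPM at 48 h and 42.9, 39.4 and 40.3 TPM at 72 h (-0.56 ± 0.04 at 24 h, adjusted p = 7.18e-10). CDCA5 had 145, 143 and 152 TPM in untreated cells, 102, 105 and 102 TPM at 24 h, 27.3, 26.1 and 25.4 TPM at 48 h and 11.2, 11.2 and 12.2 TPM at 72 h (-0.51 ± 0.05 at 24 h, adjusted p = 4.64e-08). CKS1B and CKS2 have close copies in the genome, which makes their levels uncertain. These 4 genes, picked for their falls at 24 h, were lower again at 48 h, when the whole set was lower. Whether the falls of these days are linked was not tested.

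At 48 h all 58 members were lower than in untreated cells, against 34.8% of tested genes, with 43.8% of tested genes higher. For all 58 the libraries did not overlap, against 35.6% of tested genes, and 57 were lower at least 2-fold, against 8.05% of tested genes. The median log2 fold change was -1.94 for members and 0.08 for all tested genes. Members stood at 14.6% (SPC25) to 76.9% (CDC25B) of their untreated mean, with a median of 25.2%. At 72 h all 58 were lower, against 31.6% of tested genes, with 48.1% of tested genes higher. Libraries did not overlap for the 58, against 31.9% of tested genes, and 57 were lower at least 2-fold, against 7.80%. The median was then -3.21 for members and 0.15 for all tested genes. Median-of-ratios scaling moved the median of all genes at 72 h to 0.01 and that of members to -3.35, and quantile normalization gave 0.05 and -3.22. Levels at 72 h were 5.04% (PBK) to 67.2% (CDC25B) of the untreated mean, with a median of 9.42%. CDC25B was the member that did not reach 2-fold at either time.

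From one day to the next every member fell again. At 48 h against 24 h all 58 were lower, against 26.1% of tested genes (32.1% higher), with a median of -1.98 and a range of -2.27 (CDC20, which activates the APC/C) to -0.85 (CDC25B). Libraries of these times did not overlap for any member, against 27.7% of tested genes, and 56 members fell at least 2-fold, against 3.10%. At 72 h against 48 h all 58 were lower, against 16.5% of tested genes (31.6% higher), with a median of -1.21 and a range of -1.73 (KIF20A) to -0.20 (CDC25B). In the last interval libraries did not overlap for the 58, against 18.9% of tested genes, and 46 fell at least 2-fold, against 1.01% of tested genes. The share of the log2 fall at 72 h that was present by 48 h ran from 44.5% for CDC25C to 83.9% for SMC4, with a median of 62.1%.

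**Figure D3:**
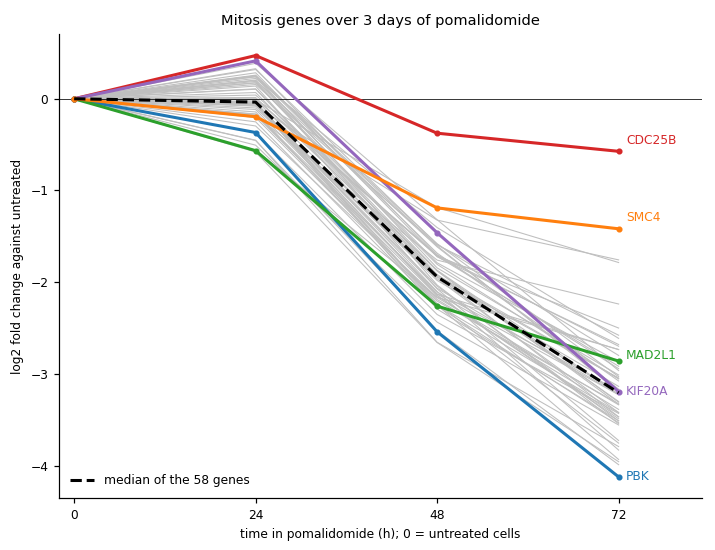
Log2 fold change against untreated cells (vertical axis) of each of the 58 mitosis genes at 24, 48 and 72 h in pomalidomide (horizontal axis, h; untreated cells at 0), with 5 genes in colour and the median of the 58 as a dashed line. Lines fan out on both sides of 0 at 24 h, between -0.58 and 0.47, and all lie under 0 from 48 h on, with CDC25B highest and PBK lowest at 72 h.

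At 72 h the deepest falls were those of PBK, CENPW, SHCBP1 and DLGAP5. PBK, a mitotic protein kinase, had 117, 130.2 and 119.5 TPM in untreated cells, 90.2, 94.5 and 98.5 TPM at 24 h, 22.01, 21.003 and 17.7 TPM at 48 h and 6.17, 7.58 and 4.72 TPM at 72 h (log2 fold change at 72 h -4.12 ± 0.10, adjusted p = 1.57e-18). CENPW, a histone-fold protein of the inner kinetochore, had 81.4, 84.7 and 77.9 TPM in untreated cells, 56.7, 56.9 and 63.8 TPM at 24 h, 14.3, 21.2 and 7.58 TPM at 48 h and 4.30, 3.57 and 4.74 TPM at 72 h (-3.99 ± 0.19, adjusted p = 1.68e-13). Its libraries at 48 h spread more widely than those of other groups, from 7.58 to 21.2 TPM, yet all stayed under those at 24 h and over those at 72 h. DLGAP5 (HURP), which stabilises microtubules near chromosomes, had 62.5, 63.04 and 61.6 TPM in untreated cells, 55.6, 57.1 and 56.4 TPM at 24 h, 12.99, 13.2 and 10.9 TPM at 48 h and 3.56, 2.58 and 3.37 TPM at 72 h (-3.93 ± 0.09, adjusted p = 1.01e-18). SHCBP1, given above, fell by 3.96 (SE 0.05). Of these 4, PBK and SHCBP1 were already lower at 24 h, CENPW passed there by a call that was lost whichever single library was left out, and DLGAP5 did not pass there (-0.14 ± 0.09, adjusted p = 0.179).

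The shallowest falls at 72 h were those of CDC25B (-0.57 ± 0.05, adjusted p = 2.34e-09), SMC4, ECT2 and CKAP2. SMC4, an ATPase subunit of both condensins, had 394, 401 and 389.7 TPM in untreated cells, 317, 358 and 361 TPM at 24 h, 176, 179.5 and 163 TPM at 48 h and 153, 137 and 152 TPM at 72 h (-1.42 ± 0.06, adjusted p = 8.09e-15). ECT2, the exchange factor that activates RhoA for cytokinesis, had 49.6, 49.96 and 52.8 TPM in untreated cells, 44.4, 49.6 and 50.1 TPM at 24 h, 19.6, 21.1 and 18.5 TPM at 48 h and 16.04, 13.2 and 13.8 TPM at 72 h (-1.76 ± 0.07, adjusted p = 4.39e-15). CKAP2, a microtubule-binding protein of the spindle, had 83.5, 94.2 and 86.8 TPM in untreated cells, 79.3, 87.9 and 95.6 TPM at 24 h, 39.1, 38.2 and 37.1 TPM at 48 h and 26.2, 23.9 and 24.4 TPM at 72 h (-1.79 ± 0.06, adjusted p = 1.76e-16). All libraries of these genes at 72 h were under all untreated ones, and at 48 h each gene except CDC25B had already lost more than 1 unit on the log2 scale. SMC4 shares 25.6% of its exon bases with genes on the other strand, IFT80 and TRIM59, and the library kit is not one that marks strand, so its level is uncertain.

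Counts by role at 24 h are a description, to be read against the 31.0% of all tested genes that were lower and the 35.1% that were higher. The 13 mitotic entry kinases and cyclins were mixed at 24 h, with 5 lower, 5 higher and 3 not passed, and all 13 were lower at 48 and 72 h (medians -1.95 and -3.05). CDK1, the master mitotic kinase, was lower at 24 h by 0.25 on the log2 scale, at 109, 124 and 118 TPM, against 140.1, 138 and 139.8 TPM in untreated cells (adjusted p = 0.00625). Its cyclin partner CCNB2 was higher by 0.32, at 102, 113 and 117 TPM, against 88.3, 91.8 and 85.004 TPM (adjusted p = 1.03e-04). CCNA2 and CCNB1 did not pass at 24 h (-0.05 and 0.10). CKS2, the most abundant member (chromosome 9, 89311198 to 89316703, plus strand, GRCh38), had 531, 553 and 564 TPM in untreated cells, 486, 494 and 474 TPM at 24 h, 155, 177 and 153 TPM at 48 h and 122, 112 and 113 TPM at 72 h. It was lower at 24 h (-0.18 ± 0.05, adjusted p = 0.00300), at 48 h (-1.76 ± 0.05) and at 72 h (-2.24 ± 0.05). FOXM1, the transcription factor of many of these genes, was lower at 24 h (-0.17 ± 0.06, adjusted p = 0.0277), a call that quantile normalization ended, and fell to 11.7, 12.4 and 9.66 TPM at 72 h, against 109.7, 109.5 and 112 TPM in untreated cells. PLK1, the Polo kinase of mitotic entry and exit, was higher at 24 h (0.14 ± 0.05, adjusted p = 0.0212), a call that median-of-ratios scaling ended. FOXM1 shares 15.9% and PLK1 12.5% of exon bases with genes on the other strand, so their levels are less certain.

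The 4 spindle checkpoint genes differed at 24 h, when BUB1B was higher (0.24 ± 0.06), MAD2L1 and BUB1 were lower and TTK did not pass (0.01 ± 0.09). BUB1, a kinase of the kinetochore (chromosome 2, 110637698 to 110678114, minus strand), had 188, 198 and 188 TPM in untreated cells, 160.2, 168 and 169.6 TPM at 24 h, 42.8, 40.6 and 40.1 TPM at 48 h and 19.05, 17.4 and 15.8 TPM at 72 h. It was lower at 24 h (-0.20 ± 0.05, adjusted p = 0.00225) and at 72 h (-3.39 ± 0.05), and the libraries of its 4 times did not overlap. All 4 genes were lower at 48 h (median -2.03) and at 72 h (median -3.12). BUB1B shares 10.2% of its exon bases with a readthrough transcript, so its level is less certain.

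Of the 6 anaphase and APC/C genes, CDCA5 was lower at 24 h, CDC20 and CDCA3 were higher and 3 did not pass, among them UBE2C, the ubiquitin-conjugating enzyme of the APC/C. UBE2C (chromosome 20, 45812576 to 45816957, plus strand) had 195, 191 and 205 TPM in untreated cells, 182, 194 and 199 TPM at 24 h, 44.3, 41.9 and 49.2 TPM at 48 h and 8.69, 17.9 and 13.6 TPM at 72 h. Untreated and 24 h libraries overlapped (-0.04 ± 0.14, adjusted p = 0.824), and the sign was reversed with quantile normalization (0.048). At 72 h it was lower by 3.83 (SE 0.14), although its 3 libraries ranged from 8.69 to 17.9 TPM. CDC20 had 169, 159.7 and 166 TPM in untreated cells, 196, 189 and 198 TPM at 24 h, 39.9, 42.8 and 36.2 TPM at 48 h and 16.3, 12.9 and 10.95 TPM at 72 h (0.24 ± 0.09 at 24 h, adjusted p = 0.0207), and that rise was lost with median-of-ratios scaling. All 6 were lower at 48 h (median -2.07) and 72 h (median -3.30), PTTG1 (securin) and ESPL1 (separase) included, at -3.06 and -2.73. PTTG1 has close copies, so its level is uncertain.

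Among the 8 kinetochore and centromere genes, CENPA, CENPE and CENPF were higher at 24 h, CENPW, NUF2 and SPC25 were lower, and HJURP and NDC80 did not pass. Of these 6 calls that of SPC25 alone held under every alternative run. Those of CENPW and CENPA were lost whichever single library was left out, that of CENPE without 5 of the 6 libraries in turn and that of CENPF without 2 of them. Of the NDC80 complex, which grips microtubules, SPC25 (-0.45 ± 0.10) passed as lower, NUF2 (-0.17 ± 0.07) did so by a call lost with quantile normalization and without 5 of the 6 libraries in turn, and NDC80 itself stood at -0.05 ± 0.10. The difference between these subunits was not tested. HJURP, the chaperone that places the centromeric histone CENPA (chromosome 2, 233833416 to 233854566, minus strand), had 103, 98.999 and 97.4 TPM in untreated cells, 95.1, 102 and 95.98 TPM at 24 h, 23.3, 18.99 and 19.4 TPM at 48 h and 7.96, 5.95 and 5.70 TPM at 72 h (-3.75 ± 0.08 at 72 h, adjusted p = 3.60e-19). Its 24 h libraries overlapped untreated ones (-0.03 ± 0.08), with the sign reversed under quantile normalization (0.029). All 8 were lower at 48 h (median -2.14) and 72 h (median -3.28).

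The chromosomal passenger complex corrects wrong attachments through the kinase AURKB, with BIRC5 (survivin) and CDCA8 (borealin). CDCA8, the most abundant of these 3 (chromosome 1, 37692418 to 37709719, plus strand), had 137, 138 and 142 TPM in untreated cells, 157, 162 and 157 TPM at 24 h, 36.8, 35.2 and 36.2 TPM at 48 h and 11.7, 13.9 and 14.1 TPM at 72 h. It was higher at 24 h (0.19 ± 0.06, adjusted p = 0.00616) and lower at 72 h (-3.30 ± 0.06, adjusted p = 7.72e-21). AURKB and BIRC5 did not pass at 24 h (-0.06 ± 0.08 and -0.05 ± 0.05) and both stood at -3.51 at 72 h.

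Of the 7 mitotic kinesins KIF20A, KIF2C and KIF4A were higher at 24 h, a share near the 35.1% of all tested genes, and 4 did not pass. KIF11 (Eg5), the motor that pushes spindle poles apart (chromosome 10, 92593286 to 92655395, plus strand), had 117, 121 and 118 TPM in untreated cells, 107, 115 and 119 TPM at 24 h, 30.4, 29.4 and 28.3 TPM at 48 h and 13.9, 11.05 and 13.2 TPM at 72 h. Its 24 h libraries overlapped untreated ones (-0.07 ± 0.06, adjusted p = 0.353; 0.0093 with quantile normalization), and it was lower at 48 h (-1.98 ± 0.06) and 72 h (-3.14 ± 0.06). KIF20A fell most of the 58 between 48 and 72 h, by 1.73 (SE 0.06). The kinesins' medians were -1.79 at 48 h and -3.17 at 72 h.

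Of the 6 spindle assembly factors 5 did not pass at 24 h and GTSE1 was higher (0.18 ± 0.05). NUSAP1, which binds and bundles microtubules (chromosome 15, 41332694 to 41381050, plus strand), had 270.0, 272 and 268 TPM in untreated cells, 242, 252 and 261 TPM at 24 h, 69.02, 65.97 and 74.5 TPM at 48 h and 27.1, 27.6 and 29.7 TPM at 72 h. It did not pass at 24 h (-0.10 ± 0.05, adjusted p = 0.0728), passed there as lower with median-of-ratios scaling (-0.15), and changed sign with quantile normalization (0.0078). At 72 h it was lower (-3.22 ± 0.05, adjusted p = 1.07e-21), but 62.2% of its exon bases are shared with an overlapping gene of the same strand, so its level is uncertain. TPX2, the activator of AURKA, stood at 0.07 ± 0.05 at 24 h and -3.47 ± 0.05 at 72 h. HMMR, which ties spindle poles to microtubules, stood at -0.07 ± 0.10 and -3.42 ± 0.10.

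Of the 5 midzone and cytokinesis genes, SHCBP1 was lower at 24 h, PRC1 was higher (0.16 ± 0.04) and ANLN, RACGAP1 and ECT2 did not pass. PRC1 bundles the antiparallel microtubules of the midzone, and 58.4% of its exon bases are shared with other genes. At 72 h this role had the shallowest median fall of the 9 roles, -2.58, although SHCBP1 lies within it (chromosome 16, 46580554 to 46621626, minus strand). RACGAP1, the partner of KIF23 in the centralspindlin complex, stood at -2.50 ± 0.04, against -3.33 ± 0.06 for KIF23.

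Of the 6 chromosome structure genes at 24 h, SMC4, NCAPG and NCAPH of condensin and MKI67 (Ki-67), which coats mitotic chromosomes, were lower, TOP2A was higher and CDCA2 did not pass. NCAPH stood at -0.37 ± 0.05 (adjusted p = 1.42e-06) and NCAPG, which shares 33.1% of its exon bases with LCORL, at -0.30 ± 0.05 (adjusted p = 6.51e-05). SMC4 (chromosome 3, 160399274 to 160434962, plus strand) stood at -0.20 ± 0.06 (adjusted p = 0.00552), and MKI67 at -0.18 ± 0.06. Both calls were lost with quantile normalization (-0.033 for SMC4), which left 2 of the 6 genes lower, near the 31.0% of all tested genes that were lower without it. TOP2A, the topoisomerase that untangles chromosomes, stood at 0.25 ± 0.06 at 24 h and -3.19 ± 0.06 at 72 h. The role's median was -3.38 at 72 h.

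**Figure D4:**
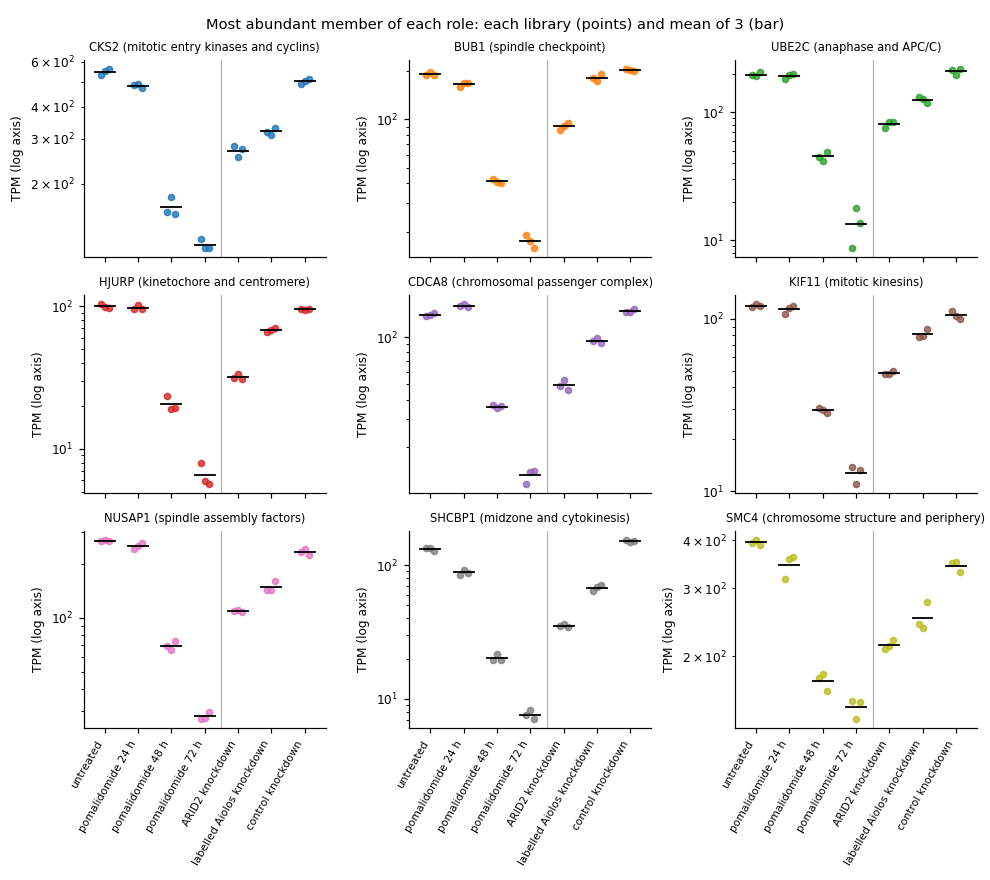
TPM (log axis) of the most abundant member of each of the 9 roles in every library (points) and as the mean of 3 (bars), for the drug times from untreated to 72 h and, right of the grey line, for the 3 knockdown groups. In the 9 panels the 48 and 72 h libraries lie under all untreated libraries and the ARID2 knockdown under all control libraries.

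All 58 mitosis genes were lower in the ARID2 knockdown than in the control knockdown, against 29.2% of tested genes that were lower and 33.1% that were higher. Their summed level was 2739, 2802 and 2817 TPM in the ARID2 knockdown, against 6738, 6661 and 6620.1 TPM in the control knockdown. The groups were far apart and libraries did not overlap for any of the 58, against 32.9% of tested genes. The median log2 fold change was -1.29 for members and 0.02 for all tested genes, and 45 members were lower at least 2-fold, against 3.18% of tested genes. Members stood at 18.2% (AURKA) to 66.8% (CKAP2) of their control mean, with a median of 40.1%.

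The largest falls in the ARID2 knockdown were those of AURKA, MAD2L1 and HMMR. AURKA, the Aurora kinase of spindle poles, had 18.3, 19.4 and 17.2 TPM in the ARID2 knockdown, 45.3, 51.5 and 51.7 TPM in libraries labelled Aiolos knockdown and 103, 98.4 and 101 TPM in the control knockdown. The log2 fold change was -2.40 ± 0.07 in the ARID2 knockdown (adjusted p = 1.41e-16) and -1.01 ± 0.07 in the libraries labelled Aiolos knockdown (adjusted p = 3.95e-11). MAD2L1 had 14.1, 14.01 and 14.9 TPM in the ARID2 knockdown, 36.98, 38.5 and 39.7 TPM in libraries labelled Aiolos knockdown and 75.2, 76.1 and 76.5 TPM in the control knockdown (-2.33 ± 0.06, adjusted p = 3.66e-17, in the ARID2 knockdown). HMMR had 17.6, 23.3 and 24.1 TPM in the ARID2 knockdown, 63.7, 65.1 and 75.1 TPM in libraries labelled Aiolos knockdown and 111, 111 and 106 TPM in the control knockdown (-2.30 ± 0.10, adjusted p = 8.11e-14, in the ARID2 knockdown). In these 3 genes the libraries of the 3 groups formed separate steps, with the ARID2 knockdown lowest. HMMR was also the member that rose most in the control knockdown against untreated cells, given below.

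The smallest falls in the ARID2 knockdown were those of CKAP2, SMC4 and ANLN. CKAP2 had 66.1, 64.5 and 67.1 TPM in the ARID2 knockdown, 76.5, 76.9 and 84.2 TPM in libraries labelled Aiolos knockdown and 98.9, 97.9 and 99.4 TPM in the control knockdown (-0.58 ± 0.06, adjusted p = 3.45e-08, in the ARID2 knockdown). SMC4 had 209, 213 and 220.2 TPM in the ARID2 knockdown, 242, 237 and 276 TPM in libraries labelled Aiolos knockdown and 349, 351 and 330.3 TPM in the control knockdown (-0.68 ± 0.06, adjusted p = 3.05e-09). ANLN (anillin), the scaffold of the contractile ring, had 17.8, 16.7 and 16.8 TPM in the ARID2 knockdown, 23.5, 24.1 and 27.9 TPM in libraries labelled Aiolos knockdown and 29.8, 28.2 and 28.2 TPM in the control knockdown (-0.71 ± 0.07, adjusted p = 5.99e-08). CKAP2 and SMC4 were also among the 4 shallowest falls at 72 h of drug, whereas ANLN, at -2.92 ± 0.07 there, was not.

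By role, the median in the ARID2 knockdown ran from -0.99 for midzone and cytokinesis genes to -1.41 for spindle assembly factors. Entry kinases and cyclins stood at -1.40, checkpoint genes at -1.38, chromosome structure at -1.31 and anaphase genes at -1.30. Kinetochore genes stood at -1.24, passenger complex genes at -1.22 and kinesins at -1.18. Within roles the spread differed: entry kinases and cyclins spanned -2.40 for AURKA to -0.90 for CKS2, whereas the kinesins spanned -1.30 to -0.97.

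In the libraries labelled Aiolos knockdown 54 members were lower than in the control knockdown, against 30.7% of tested genes, and 2 were higher, against 37.2%. ECT2 and CCNB2 were the 2 higher members, and FOXM1 and CENPF did not pass. The summed level was 4366, 4441 and 4661 TPM, against 6738, 6661 and 6620.1 TPM in the control knockdown. The median log2 fold change was -0.55 for members and 0.05 for all tested genes, and 5 members were lower at least 2-fold, against 3.11% of tested genes. Members stood at 38.9% (CDC25B) to 115% (ECT2) of their control mean, with a median of 67.9%. Since IKZF3 was higher in these libraries, the direction belongs to the libraries as labelled.

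The largest falls there were those of CDC25B, SHCBP1 and AURKA. CDC25B had 62.8, 63.3 and 62.5 TPM in the ARID2 knockdown, 50.3, 56.7 and 51.8 TPM in libraries labelled Aiolos knockdown and 139, 133 and 136 TPM in the control knockdown (-1.35 ± 0.05, adjusted p = 8.15e-15, in the libraries labelled Aiolos knockdown). SHCBP1 had 35.1, 36.1 and 34.7 TPM in the ARID2 knockdown, 63.998, 69.001 and 70.6 TPM in libraries labelled Aiolos knockdown and 155, 149.5 and 152 TPM in the control knockdown (-1.16 ± 0.05, adjusted p = 1.38e-13). Libraries of the 3 groups did not overlap for either gene, but CDC25B was lowest in the libraries labelled Aiolos knockdown and SHCBP1 in the ARID2 knockdown. CDC25B, the member that held up best under the drug, was thus the one that fell most here. The falls of CDC25C, BUB1 and ANLN were lost without at least 1 single library.

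At the other end, ECT2 had 20.99, 21.4 and 21.1 TPM in the ARID2 knockdown, 61.5, 60.3 and 70.7 TPM in libraries labelled Aiolos knockdown and 56.6, 53.9 and 56.6 TPM in the control knockdown (0.20 ± 0.07, adjusted p = 0.0161, in the libraries labelled Aiolos knockdown). CCNB2 had 29.8, 30.2 and 33.5 TPM in the ARID2 knockdown, 97.9, 104 and 107 TPM in libraries labelled Aiolos knockdown and 94.4, 91.1 and 87.1 TPM in the control knockdown (0.18 ± 0.06, adjusted p = 0.0133). Their groups did not overlap, but both rises were lost with median-of-ratios scaling (0.13 and 0.11, adjusted p = 0.0695 and 0.0896) and without the third library labelled Aiolos knockdown (0.13 and 0.15, adjusted p = 0.115 and 0.0527). The rise of ECT2 was also lost without the second control library and that of CCNB2 without the third. FOXM1 had 50.5, 50.8 and 49.2 TPM in the ARID2 knockdown, 98.2, 105 and 95.6 TPM in libraries labelled Aiolos knockdown and 97.6, 95.7 and 97.8 TPM in the control knockdown (0.03 ± 0.06, adjusted p = 0.647), with a sign that median-of-ratios scaling reversed (-0.029).

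Set against each other, the ARID2 knockdown had 55 of 58 members lower than the libraries labelled Aiolos knockdown, against 35.7% of tested genes, and 1 higher, against 30.2%. At least 2-fold lower were 13 members, against 3.98% of tested genes. The median log2 difference was -0.78, against -0.03 for all tested genes. The largest differences were in CCNB2 (-1.69 ± 0.06, adjusted p = 3.72e-15), HMMR (-1.62 ± 0.10) and ECT2 (-1.55 ± 0.07). CDC25B was the higher member (0.25 ± 0.05, adjusted p = 2.66e-04). CENPW (-0.08 ± 0.19) and SPC25 (0.02 ± 0.10) did not pass. The other cyclins differed less than CCNB2: CCNB1 stood at -1.11 ± 0.06 and CCNA2 at -0.72 ± 0.06, with no test between them.

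Most members fell further at 72 h of drug than in either knockdown, by a test of the difference between the log2 fold changes. Against the effect of the ARID2 knockdown 57 of 58 members had a lower effect at 72 h, against 29.1% of tested genes, and 1 a higher one, against 40.4%, with a median difference of -1.88. The difference was at least 2-fold for 53, against 7.63% of tested genes. The differences were largest for CENPW (-3.18 ± 0.28), PBK (-2.88 ± 0.14) and SPC25 (-2.87 ± 0.14), and smallest among the lower ones for ECT2 (-0.40 ± 0.10), MAD2L1 (-0.53 ± 0.08) and AURKA (-0.65 ± 0.09). Against the effect in the libraries labelled Aiolos knockdown 57 of 58 were lower, against 28.0% of tested genes, and 1 higher, against 35.0%, with a median difference of -2.69 and 56 past 2-fold, against 6.62%. In both comparisons CDC25B went the other way (0.53 ± 0.07 and 0.77 ± 0.07): its fall was smaller under the drug. The drug effect is measured from untreated cells and the hairpin effects from the control knockdown, whose hairpin and time are not given.

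The control knockdown itself had 15 members lower and 9 higher than untreated cells, with 34 not passed, against 28.4% and 17.3% of tested genes. The median was -0.04 for members and for all tested genes. HMMR was the highest, at 111, 111 and 106 TPM in the control knockdown, against 66.8, 73.3 and 68.8 TPM in untreated cells (0.65 ± 0.10, adjusted p = 2.02e-05). MKI67 was the lowest, at 145, 147 and 142 TPM, against 198, 194 and 204 TPM (-0.46 ± 0.06, adjusted p = 7.89e-06). These counts moved by over 1.5 times with the processing: quantile normalization gave 4 lower and 14 higher, and a fit of these 2 groups alone gave 27 lower and 15 higher. The shares of all tested genes under these alternatives are not given, so these 2 pairs of counts cannot be read against a background.

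The S phase list, 34 genes of DNA replication and of entry into S phase, gives the other arm of the cell cycle. At 24 h 33 of 34 S phase genes were lower, against 31.0% of all tested genes (median -0.95), while the mitosis genes had a median of -0.04. The remaining S phase gene, TK1, stood at -0.05 and did not pass. Summed S phase TPM was 5467 ± 18.1 in untreated cells, 2832 ± 23.5 at 24 h, 961 ± 11.02 at 48 h and 762 ± 18.3 at 72 h (SD, n = 3 each). The summed level of mitosis genes was 6828 ± 35.9, 6606 ± 188, 1848 ± 55.1 and 932 ± 24.2 TPM at the same times. Between 48 and 72 h S phase genes had 25 falls and 1 rise among the 34, against 16.5% and 31.6% of tested genes (median -0.31), whereas all 58 mitosis genes fell (median -1.21). The difference between the lists was not tested.

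The knockdowns differed in which of the 2 lists had the lower median. In the ARID2 knockdown S phase genes had 29 lower, against 29.2% of tested genes, 2 higher, against 33.1%, and 3 not passed (median -0.57), beside 58 lower mitosis genes (median -1.29). In the libraries labelled Aiolos knockdown all 34 S phase genes were lower, against 30.7% of tested genes (median -1.01), beside 54 mitosis genes (median -0.55). Set against each other, the ARID2 knockdown had 27 S phase genes higher, against 30.2% of tested genes, 3 lower, against 35.7%, and 4 not passed (median 0.60), where 55 mitosis genes were lower (median -0.78). PCNA, the sliding clamp of replication and the most abundant of the list, averaged 728 TPM in the ARID2 knockdown, 308 TPM in libraries labelled Aiolos knockdown and 590.3 TPM in the control knockdown. RRM2, a subunit of ribonucleotide reductase and the next most abundant, averaged 149, 79.6 and 258 TPM in the same groups. Summed S phase TPM was 3367 ± 27.1, 2123 ± 44.4 and 4616 ± 39.9 there, and that of mitosis genes 2786 ± 41.1, 4489 ± 153 and 6673 ± 59.99 (SD, n = 3 each).

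**Figure D5:**
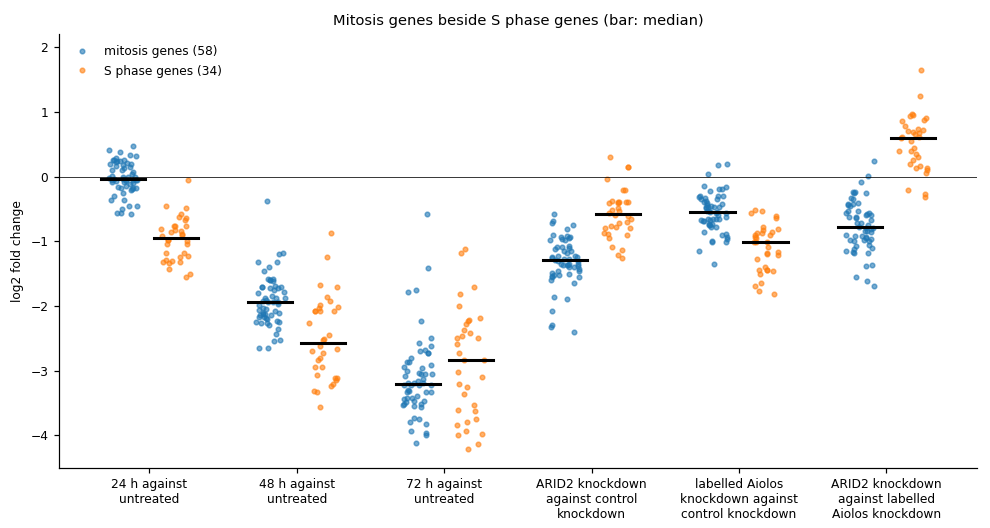
Log2 fold change (vertical axis) of 58 mitosis genes (blue) and 34 S phase genes (orange) in 6 comparisons, each point a gene and each bar a median. Medians are -0.04 and -0.95 at 24 h and -0.78 and 0.60 for the ARID2 knockdown against libraries labelled Aiolos knockdown.

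Other genes of the same structures, outside the 58, are given as lists, with the most abundant genes and the largest changes at 72 h. Their counts stand against these shares of all tested genes: 31.0% lower and 35.1% higher at 24 h, 31.6% and 48.1% at 72 h, 29.2% and 33.1% in the ARID2 knockdown, and 30.7% and 37.2% in the libraries labelled Aiolos knockdown. The kinetochore and centromere list held 37 symbols, among them newer and older names of the same genes (KNL1 and CASC5, SGO1 and SGOL1, SGO2 and SGOL2). Of these symbols 34 were present, and 22 of the 34 were lower at 24 h, none higher and 12 not passed (median -0.28). At 72 h 32 of the 34 were lower and 1 was higher (median -2.12). The largest falls at 72 h were those of SKA1 (-3.92) and SKA3 (-3.70), subunits of the complex that tracks microtubule ends. ZWINT, the most abundant, averaged 20.4 TPM at 72 h and 266 TPM in untreated cells, and PMF1, of the MIS12 complex, averaged 142 TPM at 72 h and 177 TPM in untreated cells. CENPT, which links the inner and outer kinetochore, was the higher one (0.46). In the ARID2 knockdown 28 of the 34 were lower and 1 higher (median -0.62), and the libraries labelled Aiolos knockdown gave the same counts (median -0.41).

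Of 28 other spindle, kinesin and cytokinesis genes 8 were lower, 7 higher and 13 not passed at 24 h, no more in either direction than the 31.0% and 35.1% of all tested genes, and 24 were lower and 4 higher at 72 h (median -2.89). MELK, a kinase of dividing cells, stood at -3.80 at 72 h and KIF18B, a kinesin that shortens astral microtubules, at -3.75. RHOA, the GTPase of the contractile ring and of much other actin work, averaged 464 TPM at 72 h and 518 TPM in untreated cells, and STMN1 (stathmin), which destabilises microtubules, 26.5 TPM at 72 h and 305 TPM in untreated cells. The 4 higher at 72 h were NUMA1, CLASP1, CLASP2 and NDEL1, microtubule regulators that cells also use outside mitosis. In the ARID2 knockdown 21 of the 28 were lower and 2 higher (median -1.17), and in the libraries labelled Aiolos knockdown 18 were lower and 5 higher (median -0.29).

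The medians of 3 further lists lay nearer to 0 at 72 h. Of 17 other condensin and cohesin genes 12 were lower and 4 higher at 72 h (median -0.64), from -3.12 for NCAPG2 of condensin to 0.80 for MAU2, which loads cohesin with NIPBL. ESCO2, which acetylates cohesin in S phase, stood at -3.10, and the core cohesin subunits RAD21 and SMC3 at -0.61 and -0.64. The other 3 higher genes were NIPBL (0.48), ESCO1 (0.36) and WAPL (0.13), which releases cohesin; MAU2, NIPBL, ESCO1 and WAPL were named after their values were seen. Of 17 APC/C subunits and regulators 10 were lower, 4 higher and 3 not passed (median -0.21). There UBE2S, which extends ubiquitin chains, stood at -2.35 and FBXO5 (EMI1), the APC/C inhibitor, at -2.11, while CDC16, a subunit, was higher (0.57). Of 18 further regulators of mitotic entry and exit 11 were lower, 4 higher and 3 not passed (median -1.18). PKMYT1, an inhibitory kinase of CDK1, stood at -3.83 and PLK4, which starts centriole duplication, at -3.12. The abundant phosphatase inhibitors ENSA and ARPP19 stood at 0.10 and -0.05. In the ARID2 knockdown the medians of these 3 lists were -0.24, -0.23 and -0.43, and in the libraries labelled Aiolos knockdown -0.09, 0.09 and -0.12.

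Of 11 genes for MuvB subunits, MYBL2, E2F partners and pocket proteins, 8 were lower at 24 h, against 31.0% of tested genes, 1 higher, against 35.1%, and 2 not passed (median -0.38). MYBL2 (B-MYB), which joins MuvB at late cell cycle promoters, averaged 416 TPM in untreated cells, 223 TPM at 24 h and 35.2 TPM at 72 h (-0.89 and -3.53 on the log2 scale). TFDP1, the E2F partner, stood at -0.63 and -1.68. In the ARID2 knockdown 7 of the 11 were lower, against 29.2% of tested genes, and 1 higher, against 33.1% (median -0.53), with LIN52, a MuvB subunit, at -1.32 and LIN9, another, at -0.79. In the libraries labelled Aiolos knockdown 5 were lower, against 30.7% of tested genes, and 2 higher, against 37.2% (median -0.09), with LIN52 at -1.09 and E2F5 higher (0.90).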

How the data were processed

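The authors deposited 1 table of TPM, the length-scaled share of transcripts, for 17691 genes in 21 mRNA-seq libraries of MM.1S cells. Per the labels' protocols, total RNA was made into libraries with a TruSeq RNA v2 kit and sequenced on a NovaSeq, and the build was hg38, per the submitters' processing notes. The sources used here do not give the aligner, quantifier or annotation. TPM keeps no depth, so the depth is unknown and no counting interval is given.

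All 21 libraries entered 1 limma fit (R 4.3.3, limma 3.58.1) of log2(TPM + 1) with 7 group means and a trend in the spread, over the 12559 genes that reached 1 TPM in 3 libraries or more. It had 14 residual and 5.28 prior degrees of freedom. Benjamini-Hochberg adjustment was made separately in 11 comparisons, with a threshold of 0.05. Fold changes are on the log2(TPM + 1) scale, which understates changes of low genes, and a value after ± beside a fold change is its standard error. A value after ± beside a TPM mean is a standard deviation. The code was tested on simulated data.

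The members and lists were chosen with earlier results of these data known. Values in every library are given by a rule: the most abundant member of each role, the 4 largest rises and falls at 24 h, the 4 largest and smallest falls at 72 h, and the 3 largest in each direction per knockdown, 26 members in all. Other genes named were chosen after their values were seen, apart from the 2 most abundant and the 2 most changed of each further list. Positions of genes are from GENCODE on GRCh38, where 19 members share exon bases with a gene on the other strand and 4 with a gene on the same strand. Whether libraries with the same replicate number were grown or prepared together is not given. Over 63 same-numbered pairs the correlation of deviations ran from -0.125 to 0.11, which shows little shared effect of the number. The main fit therefore had no replicate block. Alternatives were a pseudocount of 0.1, no filter and a filter of 5 TPM, median-of-ratios scaling, quantile normalization, only the groups compared, a replicate block, and leaving out each library in turn.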

Additional observations from a re-analysis of the deposited data

Results flagged for a closer look

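The effect of the drug differed in direction between 24 and 48 h for 18 members, which were higher than untreated cells at 24 h (35.1% of all tested genes were) and lower at 48 h, with the difference between the times passing limma's test. Of the members described in every library, the log2 fold change at 48 h against 24 h was -1.90 ± 0.06 for CCNB2, -0.85 ± 0.05 for CDC25B, -1.71 ± 0.09 for CDC25C, -2.03 ± 0.09 for NEK2, -2.10 ± 0.06 for CDCA8 and -1.87 ± 0.06 for KIF20A (SE, 3 libraries in each group). These 18 were chosen for their rise at 24 h, so part of the difference follows from the choice. All 58 members were lower at 48 h, so the count of 18 is that of the calls higher at 24 h. Of these 18 calls median-of-ratios scaling kept 14 and quantile normalization kept 17. That of CENPA was lost whichever single library of either group was left out.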

How the results depend on the processing

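The counts of members at 48 and 72 h, between drug times and in the ARID2 knockdown stayed within 1.5 times under every alternative, and leaving out any library left 58 of 58 lower there. At 24 h, leaving out 1 library gave 13 to 15 lower and 13 to 17 higher members. In the libraries labelled Aiolos knockdown the 2 higher members became 0 with median-of-ratios scaling and 0 to 2 when 1 library was left out, with 51 to 55 lower. For the control knockdown against untreated cells, quantile normalization gave 4 lower and 14 higher, and only the groups compared gave 27 and 15. Leaving out a library gave 9 to 14 lower and 5 to 8 higher there. Shares of all tested genes under the alternatives are not given, so the counts under them have no background beside them. The sign was reversed for FOXM1 in the libraries labelled Aiolos knockdown with median-of-ratios scaling (-0.029) and without the second of those libraries (-0.0021, in a range to 0.063 over single libraries left out). With quantile normalization it was reversed at 24 h for UBE2C (0.048), HJURP (0.029), KIF11 (0.0093) and NUSAP1 (0.0078), and for HJURP in the control knockdown (0.031). None of these had passed the test, and the cause was not tested. The replicate block kept every count within 1.5 times. At 24 h it kept 15 of 16 falls and 17 of 18 rises, losing those of CENPW and CENPE, and it ended the call of CKS2 in the control knockdown against untreated cells (-0.12, adjusted p = 0.0623 with limma). With no depth in the table, low values such as CDC25C at 72 h have an unknown counting error.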
